A study of Mus musculus with 4 samples.

Results

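The aortic root of the mouse holds smooth muscle cells that carry transcripts of Corin and few or none of the matrix genes Lum and Dcn, and 507 such cells are described here. They were selected on transcript counts of 1 library, the one made from the aortic root. A barcode entered when it had at least 1000 detected genes, at most 10% of its unique molecular identifiers (UMIs, each standing for 1 captured RNA molecule) from mitochondrial genes, at least 10 UMIs of Myh11 (smooth muscle myosin heavy chain) and at most 5 UMIs of the macrophage genes C1qa, C1qb and Lyz2 together. Of the 4040 barcodes of the Root library, 2960 met the first 2 limits and 2742 met all 4. The 507 Corin cells had at least 1 Corin UMI and at most 3 UMIs of Lum and Dcn together. Their comparison group within the same library was the 2020 cells with no Corin UMI and the same limit on Lum and Dcn, called Corin-0 cells below. The remaining 215 Root muscle cells had more than 3 UMIs of Lum and Dcn. Across the whole series there were 29930 barcodes, of which 21429 passed the limits on genes and mitochondrial UMIs.

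Corin is a membrane-bound serine protease that is best known from heart muscle, where it cleaves the precursor of atrial natriuretic peptide into the active hormone. Natriuretic peptides relax vascular smooth muscle through Npr1, a receptor with guanylyl cyclase activity that makes cyclic GMP, while Npr3 clears the peptides. The smooth muscle of the aortic root descends from the second heart field and from cardiac neural crest, and it lies next to the coronary openings, the valve and the outflow myocardium. Phospholamban (Pln) restrains the calcium pump of the sarcoplasmic reticulum, cardiac troponin T (Tnnt2) anchors the troponin complex on thin filaments, Pgam2 is the muscle form of a glycolytic enzyme, and Rgs17 shortens G protein signalling.

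The mice were 12 weeks old and carried Wnt1-Cre2 together with the mT/mG double reporter, in which cells with a history of Wnt1-Cre2 activity (the neural crest lineage) make membrane eGFP and all other cells make tdTomato. All 4 libraries share this genotype and an enrichment for the surface integrin ITGA8 by sorting after enzyme digestion in the cold, so the cells had already been narrowed to ITGA8-bearing muscle. The Root library was not split by reporter, whereas the ascending aorta gave an eGFP library (Asc-GFP) and a tdTomato library (Asc-RFP) and the arch gave an eGFP library (Arch-GFP). The sources used here do not give the sex of the animals or whether several were pooled. By sex-linked UMIs, female and male cells were both present in all 4 libraries, so each held cells of more than 1 animal. Each group is 1 library, so there is no replicate, no p-value is given, and every interval below is an exact 95% interval that covers counting error only.

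Depth was similar between libraries, with medians of 13472 UMIs in Root muscle cells, 13805 in Asc-RFP, 13100 in Asc-GFP and 13099 in Arch-GFP. The labels state 4040 Root cells before and 1841 after the authors' filter, whose limits they do not give, against 4040 barcodes in the file and 2960 under the limits used here. Of the 507 Corin cells, 2 had a barcode that also occurred in Asc-GFP and 0 had one in Asc-RFP or Arch-GFP. No doublet caller was run. Both reporters were seen in 1.18% of Corin cells and 1.09% of Corin-0 cells. Other signs of doublets were more common among Corin cells, with intervals that do not overlap. Both Xist and Y-linked UMIs were seen in 3.55% of Corin cells (2.12 to 5.55) and 1.44% of Corin-0 cells (0.964 to 2.06). The deepest 5% of muscle cells took in 7.30% of Corin cells (5.19 to 9.92) and 4.11% of Corin-0 cells (3.29 to 5.07). Leaving out all such cells left 456 Corin cells, and the part of doublets in the levels below was otherwise not tested.

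The promoters of 3 genes are shown because Corin chose the cells and because Pgam2 and Pln are the proposed markers whose share of cells differed most between Corin and Corin-0 cells below. Each sequence runs from 250 bases before to 50 bases after the start of transcription and is taken from RefSeq on build GRCm38.p6, where all 3 of 3 genes had a single window. Corin lies at chr5:72504491-72504790 on the minus strand, Pgam2 at chr11:5803747-5804046 on the minus strand and Pln at chr10:53337436-53337735 on the plus strand. Capitals mark each match, on either strand, to GATAA (a core bound by GATA factors), CANNTG (the E-box), the CArG box of serum response factor or the MEF2 site.
Corin: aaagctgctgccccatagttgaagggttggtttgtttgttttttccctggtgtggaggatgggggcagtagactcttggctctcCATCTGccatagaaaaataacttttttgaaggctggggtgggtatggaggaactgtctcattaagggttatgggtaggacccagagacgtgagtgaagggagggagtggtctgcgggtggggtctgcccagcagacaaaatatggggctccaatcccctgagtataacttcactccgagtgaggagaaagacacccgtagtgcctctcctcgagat
Pgam2: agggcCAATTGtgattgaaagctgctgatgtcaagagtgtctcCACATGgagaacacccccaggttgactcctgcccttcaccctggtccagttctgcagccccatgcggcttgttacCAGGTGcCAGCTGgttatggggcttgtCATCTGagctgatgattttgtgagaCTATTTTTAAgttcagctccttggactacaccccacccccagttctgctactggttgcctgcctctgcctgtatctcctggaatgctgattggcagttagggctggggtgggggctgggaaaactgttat
Pln: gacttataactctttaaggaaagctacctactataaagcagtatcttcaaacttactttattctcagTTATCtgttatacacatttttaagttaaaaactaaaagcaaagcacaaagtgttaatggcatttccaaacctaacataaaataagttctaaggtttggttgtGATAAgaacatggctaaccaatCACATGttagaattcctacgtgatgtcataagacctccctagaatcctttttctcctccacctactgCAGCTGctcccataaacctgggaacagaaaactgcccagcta
The Corin window held 1 E-box. That of Pgam2 held 5 E-boxes and 1 MEF2 site, CTATTTTTAA, 80 bases before the start. The Pln window held 2 GATAA matches and 2 E-boxes. A CArG box was found in 0 of the 3 windows, and 0 matches overlapped another. Over all 32851 mouse windows of the same length, 72.3% held an E-box, 25.4% held GATAA, 3.19% held the MEF2 site and 1.63% held a CArG box, so the letters of the Corin window are of the commonest kind. These matches describe the letters only.

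Corin transcripts were far more frequent in the Root library than in the others of the series. Among cells with at most 3 UMIs of Lum and Dcn, 507 of 2527 Root cells carried Corin (20.1%, 18.5 to 21.7), against 63 of 3644 in Asc-RFP (1.73%, 1.33 to 2.21), 74 of 6123 in Asc-GFP (1.21%, 0.950 to 1.51) and 18 of 7429 in Arch-GFP (0.242%, 0.144 to 0.383). Corin in Root chose the cells of this report, so these shares are a description. Root is 1 library and was not split by reporter, so its segment cannot be told apart from the library. Once every cell was thinned at random to 5000 UMIs before the genes were read, the shares were 13.0% in Root, 0.872% in Asc-RFP, 0.495% in Asc-GFP and 0.150% in Arch-GFP, in the same order. In Root, Corin was also present in 53 of the 215 cells with more Lum and Dcn (24.7%). Macrophage cells of the Root library were taken as a background for such shares. Of 72 such cells, 5 had a Corin UMI (6.94%, 2.29 to 15.5). Their median was 10672 UMIs per cell, against 13568 in the Corin cells. These macrophage cells also held 17096 CPM of smooth muscle markers, and 5.56% had both reporters, against 1.18% of Corin cells. Whether their Corin UMIs came from free RNA or from doublets was not tested. The Root share stands above the interval of its macrophage cells before thinning. After thinning, 4 of 60 macrophage cells had a Corin UMI (6.67%, 1.85 to 16.2), an interval that holds the thinned Root share of 13.0%. The Asc-GFP, Asc-RFP and Arch-GFP shares lie below that value and were not read as expression on their own. In Asc-RFP, 1 of 31 macrophage cells had a Corin UMI (3.23%), also above the share of its muscle cells.

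The number of Corin UMIs per cell, likewise a description, also differed between the libraries. In Root, 197 of the 507 Corin cells had 1 UMI, 96 had 2, 118 had 3 to 5 and 96 had 6 or more, with a maximum of 22. Cells with 3 or more made up 42.2% of the Root Corin cells (214 of 507, 37.9 to 46.6), against 7.94% in Asc-RFP (5 of 63), 8.11% in Asc-GFP (6 of 74) and 0 of 18 in Arch-GFP (0 to 18.5). A single UMI was the usual finding outside the root, in 48 of 63 Corin cells of Asc-RFP, 56 of 74 of Asc-GFP and 16 of 18 of Arch-GFP.

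**Figure D1:**
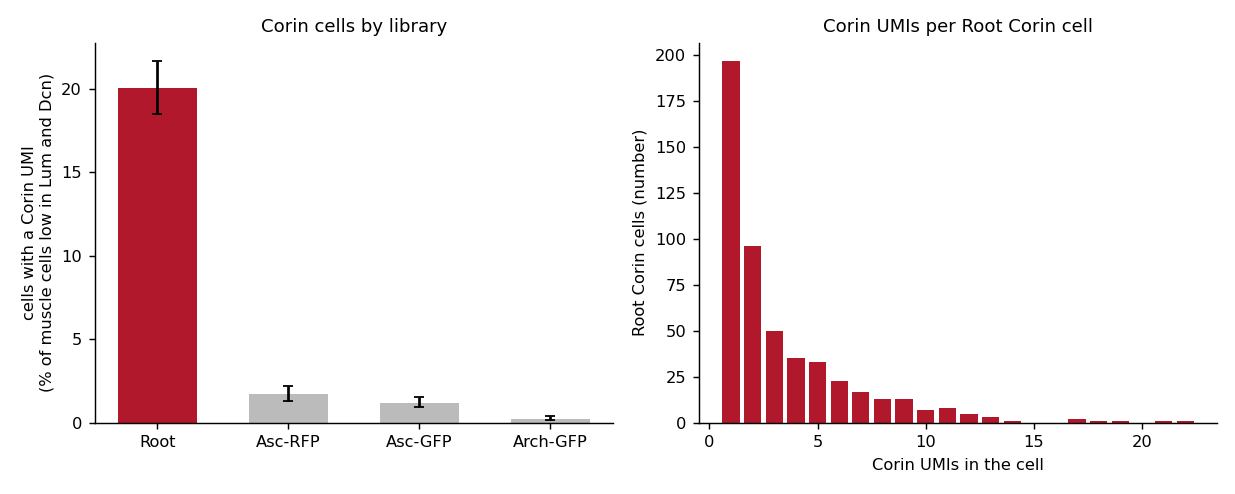
The left panel shows the percent of cells with at most 3 UMIs of Lum and Dcn that carried Corin in each library, with exact 95% binomial intervals. The right panel shows how many of the 507 Root Corin cells had each number of Corin UMIs. Root stands at 20.1% and the other libraries at 0.242% to 1.73%, and 197 Root cells have 1 UMI.

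The Root library held cells of both sexes and both reporters, and the share of Corin cells differed among them. Cells were counted as male when they had a Y-linked UMI and no Xist, and as female in the opposite case. Corin was found in 118 of 283 male cells (41.7%, 35.9 to 47.7) and in 339 of 2093 female cells (16.2%, 14.6 to 17.8). By reporter it was found in 100 of 577 eGFP cells (17.3%) and 355 of 1742 tdTomato cells (20.4%), whose intervals overlap. Within female cells the shares were 10.6% of eGFP and 17.3% of tdTomato cells, and within male cells 51.6% of eGFP and 38.9% of tdTomato cells. Females made up 74.2% of the sexed Corin cells and 91.4% of the sexed Corin-0 cells, and among Corin cells the female share was 89.9% at 1 Corin UMI, 70.5% at 2, 64.5% at 3 to 5 and 57.1% at 6 or more. Male and female cells come from different animals, so sex cannot be told apart from animal here or in the values by sex below. The part of sex in the gene differences below was not tested. Values in female cells are given for the 4 markers, for the 15 highest and 15 lowest genes and for levels by Corin UMIs. They are also given for some of the lists, and counts in female cells differed in other lists as well. In Asc-RFP Corin was found in 2.04% of male and 1.44% of female cells, and in Asc-GFP in 0.786% of male and 1.39% of female cells, with overlapping intervals in each.

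The markers of the Corin cells were those of smooth muscle, of which the rule had used Myh11. For gene levels, Corin cells were matched to Corin-0 cells of the same total UMIs, which kept 507 cells in each set at medians of 13568 and 13570 UMIs, and levels are given as CPM, the usual scaling of a gene's UMIs to the sum of all UMIs of the set. All 12 smooth muscle markers were detected, and together they summed to 52312 CPM in Corin cells and 51916 CPM in Corin-0 cells, or 46855 and 46668 CPM without Myh11. Cardiomyocyte markers summed to 109 CPM in Corin cells and 114 CPM in Corin-0 cells, led by Ryr2 and Myl4, with 12 of 15 detected in each. Of the defining genes of heart muscle, Myl2, Myl7 and Nppb had 0 UMIs in Corin cells, and Nppa, Nppb and Mybpc3 had 0 in Corin-0 cells. Nppa, which encodes the substrate of Corin, had 1 UMI in the Corin cells. Endothelial markers summed to 8.73 CPM in Corin cells and 13.6 CPM in Corin-0 cells, macrophage markers to 15.9 and 14.5 CPM (3.60 and 3.74 CPM without C1qa, C1qb and Lyz2, which the rule limits), and mesothelial markers had 0 UMIs in both. The pericyte list, whose genes smooth muscle shares, summed to 546 CPM in Corin cells and 499 CPM in Corin-0 cells, with 7 of 7 detected. The fibroblast list, which holds Lum and Dcn, summed to 2318 and 3246 CPM, or 2305 and 3230 CPM without these genes that the rule limits, and the valve interstitial list to 5291 and 6925 CPM. The leading genes of these lists (Col3a1, Vim, Postn) are also made by smooth muscle. The glial and neuronal list, carried by Ncam1, summed to 241 CPM in Corin cells and 343 CPM in Corin-0 cells, and the melanocyte list, carried by Mitf alone, to 10.7 and 16.2 CPM.

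Of the 4 markers proposed with Corin, Pln and Pgam2 separated the sets by the share of cells that carry them, whereas Tnnt2 and Rgs17 did little. With every cell thinned to 5000 UMIs, which left out 12 Corin cells and 60 Corin-0 cells, Pln was seen in 51.7% of Corin cells (47.2 to 56.2) and 24.7% of Corin-0 cells (22.8 to 26.7). Pgam2 was seen in 17.8% of Corin cells (14.5 to 21.4) and 2.86% of Corin-0 cells (2.17 to 3.69). The Tnnt2 share was 56.4% in Corin cells (51.9 to 60.8) and 56.6% in Corin-0 cells (54.4 to 58.8), and that of Rgs17 was 11.1% (8.48 to 14.2) and 8.83% (7.61 to 10.2). Without thinning, at matched depth, the shares were 70.4% of Corin cells and 44.6% of Corin-0 cells for Pln, 28.4% and 6.71% for Pgam2, 65.3% and 69.6% for Tnnt2, and 21.3% and 15.2% for Rgs17. Thinned macrophage cells of the library gave 23.3% for Tnnt2, 10% for Pln and 1.67% each for Pgam2 and Rgs17 (0.0422 to 8.94). The Pgam2 and Rgs17 shares of Corin-0 cells lie within that background, and the interval of the Rgs17 share of Corin cells overlaps it, whereas the other shares of Pln, Pgam2 and Tnnt2 lie above it. The 4 markers were seldom found together: of thinned Corin cells 12.3% had none of the 4, 45.3% had 1, 35.8% had 2, 6.46% had 3 and 0.202% had all 4, against 29.5%, 50.4%, 17.7%, 2.35% and 0.0510% of Corin-0 cells. These genes were proposed with results of these cells in view, so the shares are a description.

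By level, all 4 markers were higher in Corin cells. Pln had 224 CPM in Corin cells (213 to 235) and 81.3 CPM in matched Corin-0 cells, a log2 ratio of 1.46 (1.32 to 1.60). Pgam2 had 62.8 CPM in Corin cells and 10.4 CPM in Corin-0 cells, a log2 ratio of 2.59 (2.24 to 2.97). Tnnt2 had 1380.4 CPM in Corin cells and 542 CPM in Corin-0 cells, a log2 ratio of 1.35 (1.29 to 1.40), although the same share of cells carried it. Rgs17 had 32.7 CPM in Corin cells and 17.9 CPM in Corin-0 cells, a log2 ratio of 0.87 (0.56 to 1.19). Among female cells alone Tnnt2 had 1544.9 CPM in Corin cells and 539 CPM in Corin-0 cells, Pln 168 and 77.3 CPM, Rgs17 33.3 and 16.4 CPM and Pgam2 26.2 and 7.10 CPM. Among male cells alone the log2 ratio of Tnnt2 was 0.55 and that of Rgs17 was -0.35. Among eGFP cells Tnnt2 came to 0.34 and Rgs17 to 2.16. In mm10 coordinates (GENCODE M21) Corin lies on chromosome 5 from 72300025 to 72504473, Tnnt2 on chromosome 1 from 135836354 to 135852260, Pln on chromosome 10 from 53337667 to 53345987, Rgs17 on chromosome 10 from 5825663 to 5922400 and Pgam2 on chromosome 11 from 5801640 to 5803733, and all are protein-coding.

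All genes were then compared between Corin and matched Corin-0 cells. Among 5798 genes that reached 20 CPM in 1 set or both, 175 were higher by a log2 ratio of 0.5 or more (3.02%) and 139 lower by as much (2.4%), and 60 and 28 of these differed by 2-fold or more. The median log2 ratio over all genes was 0.01. The rule that chose the cells used this contrast, so these counts are a description and nothing is read from them. The genes named next are the 15 highest and 15 lowest, ranked by the interval bound nearest to 0.

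Receptors, channels and other membrane proteins were among the 15 genes highest in Corin cells. Olfr558, a G protein-coupled receptor of the olfactory receptor family, had 26.0 CPM in Corin cells and 1.25 CPM in Corin-0 cells, from 188 and 9 UMIs, a log2 ratio of 4.38 (3.43 to 5.54). Kcnk3, a background potassium channel that holds the resting potential, had 27.4 and 4.43 CPM, a log2 ratio of 2.63 (2.09 to 3.22). Ntrk2, the receptor of brain-derived neurotrophic factor, had 38.7 CPM in Corin cells and 9.0 CPM in Corin-0 cells. Gja4, a gap junction protein that couples vascular cells, had 47.4 and 10.9 CPM, a log2 ratio of 2.11 (1.76 to 2.49). The membrane proteins Tmem215 (33.5 and 3.74 CPM) and Tmem176b (79.4 and 24.2 CPM) were higher too. After thinning, Tmem176b was seen in 29.7% of Corin cells and 11.3% of Corin-0 cells, against 32.1% of the cells with more Lum and Dcn and 85% of macrophage cells.

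Secreted and matrix-acting proteins were also among the 15. Thbs1, a matrix glycoprotein that can activate latent TGF-beta, had 75.8 CPM in Corin cells and 15.5 CPM in Corin-0 cells, a log2 ratio of 2.29 (1.99 to 2.59). C1s1, a protease of the complement system, had 110.4 and 26.5 CPM, a log2 ratio of 2.06 (1.83 to 2.30). Igfbp5, which binds insulin-like growth factors, had 41.3 and 4.99 CPM, a log2 ratio of 3.05 (2.55 to 3.59). Timp4, an inhibitor of metalloproteases, had 60.8 CPM in Corin cells and 19.0 CPM in Corin-0 cells, and Phex, an endopeptidase of phosphate balance, had 32.8 and 9.97 CPM. The last 2 were Art3, a member of the ADP-ribosyltransferase family, at 145 and 46.0 CPM, and Cbfa2t3, a transcriptional corepressor, at 24.2 and 5.26 CPM. By thinned share, Phex was seen in 11.3% of Corin cells, 4.13% of Corin-0 cells and 11.6% of the cells with more Lum and Dcn. Cbfa2t3 was seen in 8.08%, 3.42% and 4.19% of these sets, and in 21.7% of macrophage cells.

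Among the 15 genes lowest in Corin cells were matrix proteins and secreted modulators. Mfap5, a microfibril component, had 46.0 CPM in Corin cells and 239 CPM in Corin-0 cells, a log2 ratio of -2.38 (-2.55 to -2.21). Postn (periostin) had 419 and 897 CPM, a log2 ratio of -1.10 (-1.16 to -1.04), and the proteoglycan Vcan had 25.1 and 77.4 CPM. The secreted Wnt antagonist Wif1 had 36.9 CPM in Corin cells and 123 CPM in Corin-0 cells, and Sfrp2, of the secreted frizzled-related family, had 9.56 and 43.4 CPM. The ligand Wnt16 was lower with them, at 73.8 CPM in Corin cells and 170.2 CPM in Corin-0 cells. Npr1, the receptor that answers the hormone Corin activates, had 11.4 CPM in Corin cells and 52.1 CPM in Corin-0 cells, a log2 ratio of -2.20 (-2.56 to -1.85). By share, Npr1 was seen in 3.43% of thinned Corin cells and 20.3% of thinned Corin-0 cells, and Mfap5 in 10.3% and 43.6%. Mylk4, a kinase of the myosin light chain kinase family, had 176 and 413 CPM, and the receptor phosphatase Ptprz1 had 98.8 and 232 CPM. The retinol carrier Rbp4 had 75.8 CPM in Corin cells and 173 CPM in Corin-0 cells. Sema3c, Aqp1, Pamr1, Pcsk5 and Brip1 completed the 15, with log2 ratios from -1.76 to -1.32.

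Within Root, these 30 genes had the same direction in each sex and each reporter. In female cells alone (339 in each set) the 15 higher genes had log2 ratios from 0.77 to 4.20 and the 15 lower genes from -2.27 to -0.88. Male cells (117 in each set) gave 1.06 to 4.70 and -3.51 to -0.94, eGFP cells (100 in each set) 1.65 to 4.84 and -3.00 to -0.97, and tdTomato cells (353 in each set) 1.19 to 4.60 and -2.60 to -0.95. These subsets are parts of the cells that chose the genes. Thbs1 had the smallest ratio of the 15 higher genes in female cells, at 26.0 CPM in female Corin cells and 15.2 CPM in female Corin-0 cells, and Pgam2 had a log2 ratio of 1.88 there.

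The ascending aorta gave Corin cells that the rule had not used, each compared with 10 Corin-0 cells of the same library and depth. In Asc-RFP (63 Corin and 630 Corin-0 cells), 8 of the 15 genes higher in Root reached 20 CPM in 1 set or both, and 8 of these 8 were higher by 0.5 or more, against 4.53% of all 5890 genes at that minimum. The 15 genes lower in Root all reached it, and 13 of them were lower, against 6.1% of all genes. The minimum can be met through the Corin cells alone, which favours genes that are higher in them. Of the 7 higher genes under the minimum, 5 had enough UMIs for a ratio. Without the minimum, 13 of the 15 had a ratio, and 12 of these were higher by 0.5 or more. The levels of Pln in Asc-RFP were 80.0 CPM in Corin cells and 30.8 CPM over all its Corin-0 cells, and the matched log2 ratio was 1.73. Kcnk3 (2.84), Thbs1 (2.17), Art3 (2.16), Tmem176b (2.11) and C1s1 (1.92) had the largest log2 ratios there, that of Kcnk3 from 10.5 CPM in Corin cells, under the minimum, and Pamr1 (-1.91), Aqp1 (-1.69), Sfrp2 (-1.61), Brip1 (-1.43) and Npr1 (-1.35) the lowest. The marker Tnnt2 had a log2 ratio of 1.46 in Asc-RFP, and Rgs17 had 1.96 from 7 UMIs in Corin cells.

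In Asc-GFP (74 Corin and 740 Corin-0 cells), 5 of the 15 genes higher in Root reached 20 CPM, and 5 of these 5 were higher, against 4.14% of all 5969 genes. The 15 genes lower in Root all reached it, and 6 of them were lower, against 3.64% of all genes. Here too the minimum can be met through the Corin cells alone. Without the minimum, 13 of the 15 higher genes had a ratio. By the same limit on the ratio, 9 of these 13 were higher and 2, Thbs1 and Gja4, were lower. Only 7 of the 13 had an interval wholly on the side seen in Root. Under the minimum, Kcnk3 had 1.74 and Ntrk2 had 1.61. C1s1 (1.27), Art3 (1.17) and Pln (1.0) were on the side seen in Root, and Pamr1 (-1.73) and Npr1 (-0.76) among those lower. Thbs1 had 1 UMI in the 74 Corin cells and 109 in the 740 Corin-0 cells (0.926 and 10.1 CPM), a log2 ratio of -3.45 (-8.76 to -0.94). Gja4 had 2 and 45 UMIs (1.85 and 4.17 CPM), a log2 ratio of -1.17 whose interval includes 0 (-4.26 to 0.77). Both are under the minimum. The difference between libraries was not tested.

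Olfr558 and Pgam2, high in Root, were at or near 0 in the ascending Corin cells. Olfr558 had 2 UMIs in the Corin cells and 0 in the Corin-0 cells of Asc-RFP, and 0 in both sets of Asc-GFP. Pgam2 had 3 and 9 UMIs in Asc-RFP and 0 and 4 in Asc-GFP. Tmem215 had 0 UMIs in the Corin cells and 5 in the Corin-0 cells of Asc-RFP, and 3 and 8 in Asc-GFP. Levels in Corin cells by library were 62.8 CPM in Root, 3.16 in Asc-RFP, 0 in Asc-GFP (at most 2.78 from a count of 3) and 4.21 in Arch-GFP for Pgam2. For Pln they were 224 in Root, 80.0 in Asc-RFP, 35.2 in Asc-GFP and 8.42 in Arch-GFP. The Tnnt2 level was 1380.4 CPM in Root, 889 in Asc-RFP, 442 in Arch-GFP and 179 in Asc-GFP, and Rgs17 was 32.7 in Root and between 7.36 and 12.6 in the other libraries, where it rests on 3 to 9 UMIs.

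**Figure D2:**
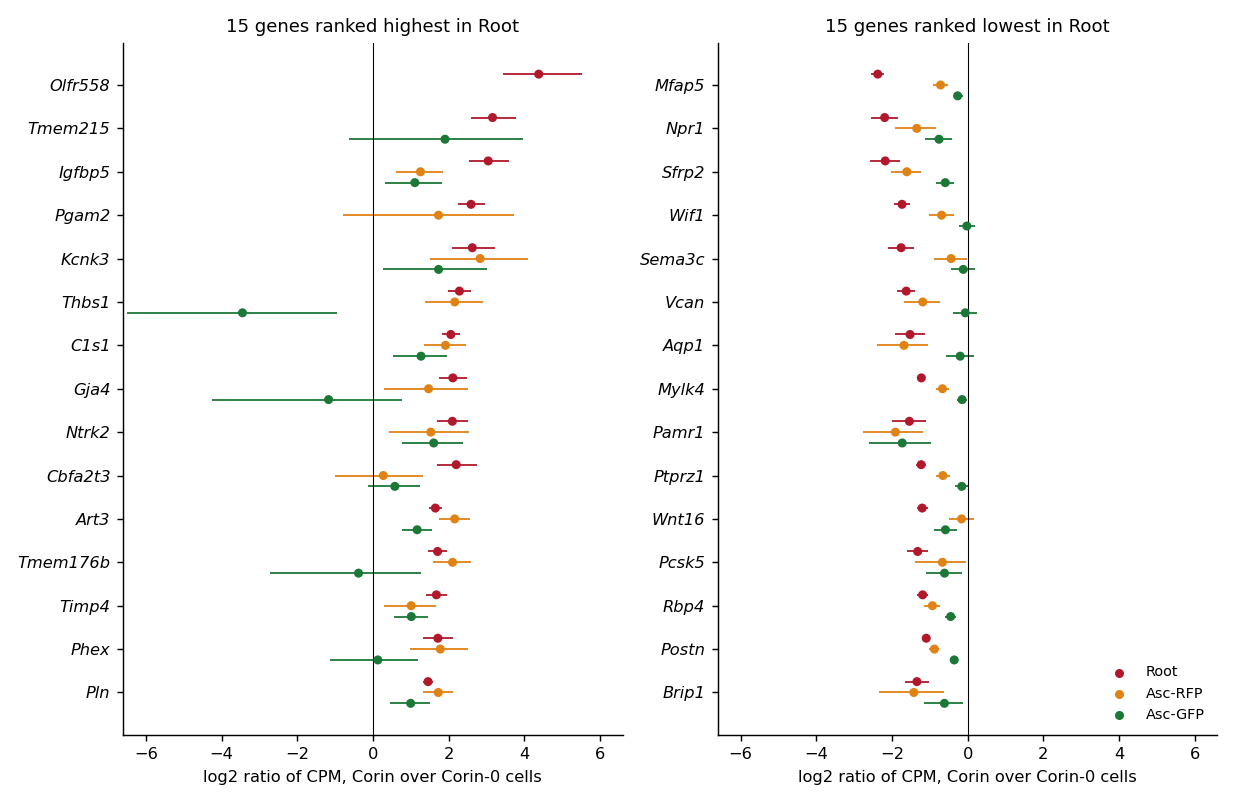
Log2 ratios of Corin over Corin-0 cells for the 15 highest and 15 lowest genes of the Root contrast, in Root, Asc-RFP and Asc-GFP, with exact 95% intervals; a missing point had too few UMIs for a ratio and intervals that pass the axis are clipped. Root points chose the genes, and Thbs1 lies at 2.29 in Root, 2.17 in Asc-RFP and -3.45 in Asc-GFP.

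Set directly against the 55 Corin cells of Asc-RFP that could be matched, 275 Root Corin cells had more eGFP, since only tdTomato cells were sorted into Asc-RFP. Of 6013 genes, 588 were higher in Root Corin cells (9.78%) and 469 lower (7.8%). Pgam2 had 60.2 CPM in Root Corin cells and 3.58 CPM in Asc-RFP Corin cells, a log2 ratio of 4.07 (2.51 to 6.36). Thbs1 had 78.6 and 13.1 CPM, and Sncg, a synuclein, had 620.4 and 165 CPM. Tmem215 had 32.2 CPM in Root Corin cells and 0 UMIs in Asc-RFP Corin cells, a log2 ratio of at least 3.17 against the 3 UMIs that a count of 0 allows, and Olfr558 had 22.9 CPM and 0 UMIs, a log2 ratio of at least 2.68. Lower in Root were Sfrp2 (7.64 and 58.5 CPM), Mfap5 (46.1 and 245 CPM), Unc45b, a myosin chaperone (3.34 and 26.3 CPM), Sema3c, Rbp4 and Pdlim4, whose log2 ratios lay between -2.97 and -1.61. A difference here is also 1 library against another and cannot be told apart from the segment. The sets were matched on depth only. Over all Corin cells, eGFP cells made up 19.7% in Root and 0% in Asc-RFP, and females 74.2% and 44.4% of sexed cells. The part of reporter and sex in these differences was not tested.

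The genes below were chosen on Corin against Corin-0 cells and are graded here by Corin itself, so their levels by number of Corin UMIs are a description. At 0, 1, 2, 3 to 5 and 6 or more Corin UMIs, at median depths between 13366 and 13890 UMIs, Pln had 79.3, 149.7, 193, 296 and 309.9 CPM. Pgam2 had 6.27, 18.6, 36.5, 116 and 109 CPM over the same classes, and Olfr558 had 0.547, 6.94, 7.31, 43.1 and 60.6 CPM. Each of these was lowest in cells without Corin and several times higher from 3 UMIs on. The matrix genes ran the other way: Mfap5 had 213, 79.2, 45.3, 14.8 and 19.7 CPM, and Postn had 820, 519, 444, 336 and 302 CPM. Mylk4 had 390, 257, 235, 85.1 and 73.2 CPM, and Npr1 had 49.3, 16.1, 15.3, 4.14 and 7.04 CPM. Tnnt2 was at 651, 1311, 1451, 1041 and 1851 CPM, with no steady order. The female share of sexed cells was 91.4% at 0 Corin UMIs and 89.9, 70.5, 64.5 and 57.1% over the other classes. In female cells alone Pln had 76.0, 133, 166, 197 and 237 CPM, Pgam2 had 5.41, 12.3, 23.6, 42.2 and 50.2 CPM, and Mfap5 had 228, 88.2, 53.9, 21.6 and 5.42 CPM. In these cells Pln and Pgam2 again stood higher and Mfap5 lower with more Corin, by less than in all cells for Pln and Pgam2. Pln, Mfap5 and Npr1 thus differed already between 0 and 1 UMI, just outside and just inside the Corin limit. At the limit of Lum and Dcn, the 8 Corin cells with 3 UMIs had 51.0 CPM of Pln and 3159 CPM of Tnnt2, and the 15 cells with Corin and 4 or 5 UMIs had 42.3 and 1913 CPM. Olfr558 had 0 UMIs on both sides of that limit, which for the 8 cells allows up to 30.6 CPM.

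**Figure D3:**
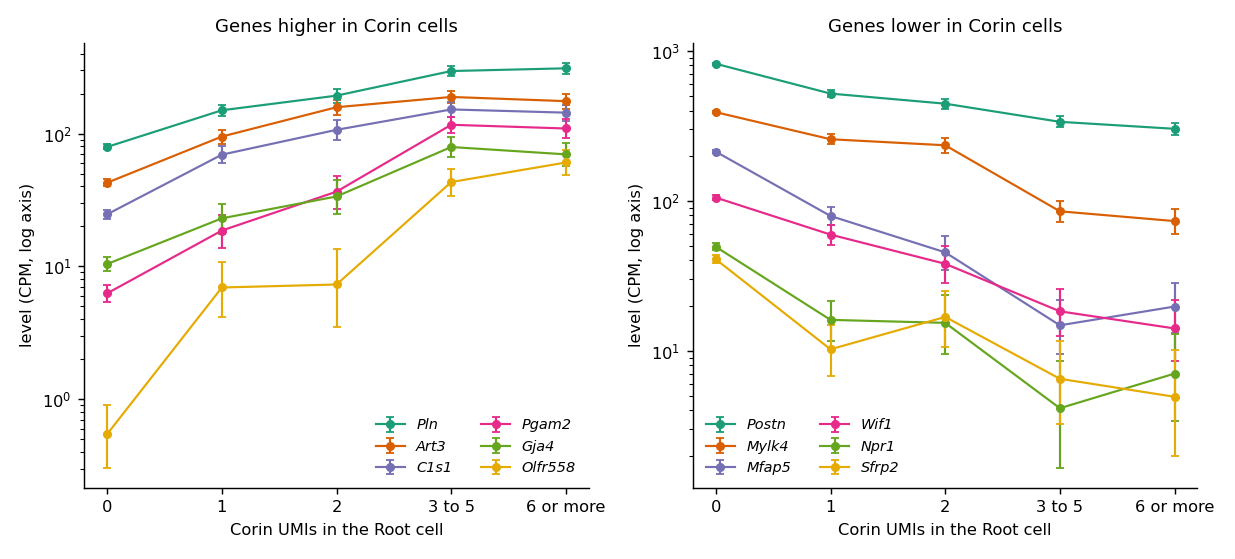
Levels in CPM of 12 genes in Root cells with at most 3 UMIs of Lum and Dcn, grouped by their number of Corin UMIs, with exact 95% Poisson intervals. The level axes are log axes. Genes of the left panel stand higher and those of the right panel lower in cells with more Corin, as in Mfap5, at 213 CPM with no Corin UMI and 19.7 CPM with 6 or more.

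The Corin cells were not uniform in Tnnt2. After thinning, 123 of 495 Corin cells (24.8%) had 10 or more Tnnt2 UMIs, 156 (31.5%) had 1 to 9 and 216 (43.6%) had none. Of 1960 Corin-0 cells, 201 (10.3%) had 10 or more, 908 (46.3%) had 1 to 9 and 851 (43.4%) had none. So the share without Tnnt2 was alike in both sets, and the higher mean of Corin cells lay in the cells with 10 or more. The limit of 10 is a line in a continuous range: 9 Corin cells and 34 Corin-0 cells had exactly 10, and 12 and 20 had 9. The classes differed in composition as well. Among Corin cells, eGFP cells made up 29.6% of those without Tnnt2, 21.2% of those with 1 to 9 and 2.44% of those with 10 or more, and females made up 64.2%, 79.7% and 83.1% of sexed cells.

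Several genes of the Corin cells were concentrated where Tnnt2 was absent. Olfr558 had 53.6 CPM in Corin cells without Tnnt2, 12.8 CPM with 1 to 9 UMIs and 0 UMIs with 10 or more, which allows up to 1.63 CPM. Pgam2 had 118, 32.3 and 15.8 CPM over these classes, Gja4 had 87.8, 26.9 and 9.80 CPM, and Thbs1 had 141, 49.3 and 7.08 CPM. The sphingosine-1-phosphate receptor S1pr3 had 38.9, 9.5 and 0.544 CPM, and the receptor Notch3 had 152, 77.1 and 37.6 CPM. Other genes ran with Tnnt2: Des (desmin) had 63.9, 213 and 291 CPM, Apoe had 482, 641 and 1064 CPM, and Phex had 16.7, 26.1 and 65.9 CPM. Corin itself had 279, 168 and 256 CPM, so Corin was close at both ends of the Tnnt2 range. The same split held in female cells, where Olfr558 had 50 UMIs in 124 cells without Tnnt2 and 0 in 98 cells with 10 or more, and Phex had 11.0 and 64.7 CPM. Among tdTomato cells Pgam2 had 129 CPM without Tnnt2 and 18 CPM with 10 or more. Of the 88 thinned Corin cells with Pgam2, 70 had no Tnnt2 and 5 had 10 or more; 44.6% of the sexed cells among the 88 were female and 75% had 3 or more Corin UMIs.

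**Figure D4:**
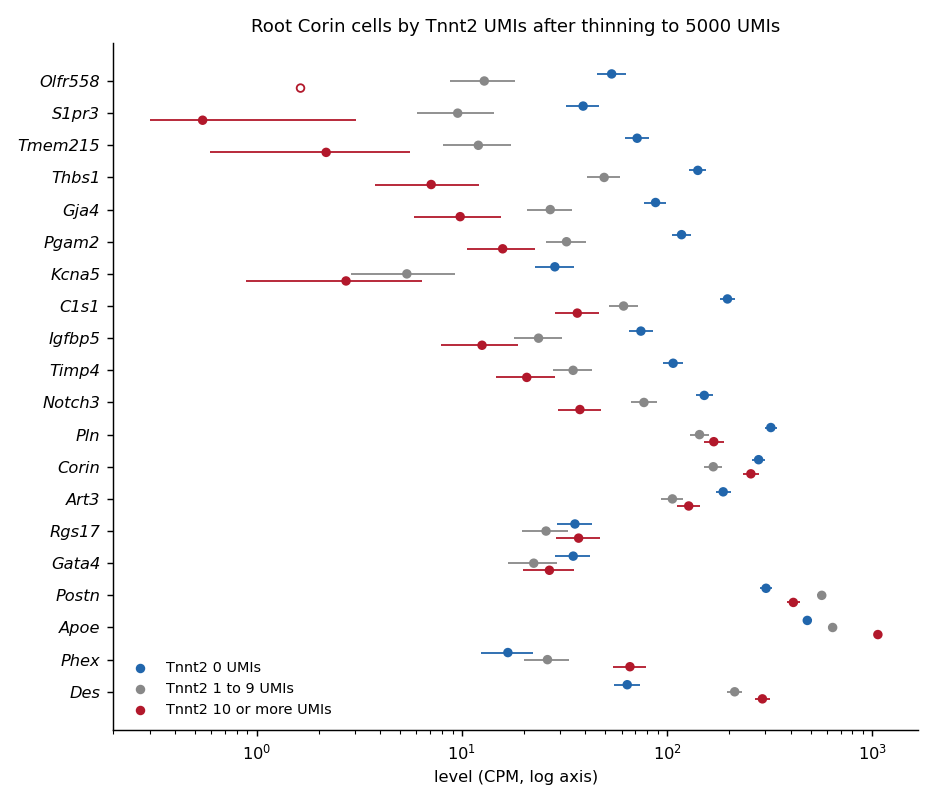
Levels in CPM, on a log axis, of 20 genes in Root Corin cells with 0, 1 to 9 and 10 or more Tnnt2 UMIs after thinning to 5000 UMIs, with exact 95% Poisson intervals. An open point stands for 0 UMIs and is drawn at the level that 3 UMIs would give. Olfr558, Pgam2 and Thbs1 are highest without Tnnt2, and Phex, Apoe and Des are highest with 10 or more.

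Within each Tnnt2 class the Corin cells were compared with Corin-0 cells of the same class and depth. Without Tnnt2 (216 cells in each set), 460 of 5968 genes were higher (7.71%) and 396 lower (6.64%). Of the 15 higher genes 14 reached 20 CPM and 14 of these were higher, and 15 of the 15 lower genes were lower, with median log2 ratios of 2.71 and -2.11. With 10 or more Tnnt2 UMIs (121 cells in each set), 276 of 5881 genes were higher (4.69%) and 222 lower (3.77%). Of the 15 higher genes 7 reached 20 CPM there and 5 of these were higher, and of the 15 lower genes 12 reached it and 7 were lower. Without the minimum, 10 of the 14 higher genes with a ratio were higher and 9 of the 15 lower genes were lower. All genes with a ratio had median log2 ratios of 0.87 and -0.59. Pln, Kcnk3 and Art3 were higher in both classes, at log2 ratios of 1.94, 3.09 and 2.29 without Tnnt2 and of 1.07, 1.36 and 0.80 with 10 or more. Phex had 1.81 without Tnnt2, at 16.7 CPM in Corin cells, under the minimum, and 1.70 with 10 or more. Npr1 (-2.36 and -2.0), Ptprz1 (-1.16 and -1.44) and Mfap5 (-2.52 and -1.46) were lower in both. Thbs1 (2.71 and 0.11), C1s1 (2.60 and 0.31), Tmem176b (2.37 and 0.13) and Tmem215 (3.8 and 0.41) passed 0.5 in the cells without Tnnt2 and not in those with 10 or more, where their intervals include 0 and where Thbs1 and Tmem215 were under the minimum. The genes were chosen in part on these cells, and the difference between classes was not tested.

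Neural crest descent within the Corin cells could be read from the reporter, which the rule did not use. Over all Root Corin cells, 51 eGFP cells were female and 32 male, against 250 and 79 tdTomato cells. The sets were matched on depth only, and the part of sex in the differences was not tested. Of 5946 genes, 248 were higher in the 98 eGFP Corin cells than in 294 tdTomato Corin cells (4.17%) and 250 were lower (4.2%). Besides the reporters themselves, eGFP Corin cells had more Thbs1 (160.0 and 63.0 CPM), Olfr558 (56.7 and 21.8 CPM), Ndufa4l2, a mitochondrial protein (38.7 and 9.59 CPM), the matricellular gene Ccn5 (33.7 and 9.82 CPM) and the sarcomere-associated scaffold Sorbs2 (699 and 337 CPM). They had less Tnnt2, at 373 CPM in eGFP and 1640.0 CPM in tdTomato cells, a log2 ratio of -2.14 (-2.27 to -2.01). Des had 35.9 and 214 CPM, Psd, an exchange factor of small GTPases, 7.18 and 77.9 CPM, and the adhesion molecule Vcam1 26.6 and 74.3 CPM. Hand2os1, an RNA read from the strand opposite Hand2, had 40.2 CPM in eGFP and 179.7 CPM in tdTomato Corin cells. The sources used here do not give the strand used in counting, so this RNA may be mixed with Hand2.

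Against the 214 Root muscle cells rich in Lum and Dcn that could be matched, 428 Corin cells had 237 of 5937 genes higher (3.99%) and 319 lower (5.37%). Olfr558 had 26.6 CPM in Corin cells and 0 UMIs in the others, a log2 ratio of at least 4.81, and Tmem215 (34.5 and 2.52 CPM), Pgam2 (61.1 and 7.57 CPM) and Timp4 (59.8 and 9.78 CPM) were higher in Corin cells, as against Corin-0 cells. Crip1, a LIM-domain protein, had 3967 and 1003 CPM, a log2 ratio of 1.98 (1.93 to 2.04), and Lrrc32, which presents latent TGF-beta, had 33.2 and 5.36 CPM. Lower in Corin cells were the cartilage-type matrix protein Comp (2.99 and 61.2 CPM), the activin antagonist Fst (4.41 and 82.0 CPM), Gpx3 (1.26 and 26.5 CPM), Fxyd6 (2.36 and 34.7 CPM), Fbln1 (10.7 and 90.9 CPM) and Mfap5 (47.7 and 339 CPM). Rgs17 and Tnnt2 were not higher in Corin cells than in these: thinned shares were 11.1% of Corin cells and 17.7% of the others for Rgs17, and 56.4% and 74.4% for Tnnt2.

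Pathway lists were read at a lower minimum of 5 CPM in either set, where 570 of 9734 genes were higher in Corin cells (5.86%) and 368 lower (3.78%), with a median log2 ratio of 0.02. For the other contrasts below, shares over all genes are at hand only at 20 CPM. Higher and lower were 2.83% and 1.9% in female cells and 8.84% and 7.41% in male cells. They were 4.53% and 6.1% in Asc-RFP and 4.14% and 3.64% in Asc-GFP. Against cells with more Lum and Dcn they were 3.99% and 5.37%. List counts in these contrasts are a description, and nothing is read from them. The Notch list had 5 of 9 measured members higher, 0 lower and a median of 0.96. Its higher members were the receptors Notch3 (97.2 CPM in Corin cells and 35.6 in Corin-0 cells, log2 ratio 1.45) and Notch1 (15.1 and 7.06 CPM), the ligands Jag1 (52.5 and 27.0 CPM) and Jag2 (7.34 and 3.60 CPM) and the target Hes1 (48.3 and 23.5 CPM). The median was 0.89 in female cells, 0.41 in male cells, 0.41 in Asc-RFP and 0.17 in Asc-GFP, and among cells with 10 or more Tnnt2 UMIs the log2 ratio of Notch3 was 0.48. Among vasoactive receptors 3 of 10 were higher, the endothelin receptor Ednra (12.9 and 2.08 CPM), the adrenergic receptor Adrb1 (12.7 and 3.60 CPM) and S1pr3 (19.1 and 1.66 CPM), and the purinergic P2rx1 was lower. Ion channels gave 4 higher of 20, the potassium channel Kcna5 (14.1 and 0.554 CPM), Kcnk3, the T-type calcium channel Cacna1h (10.1 and 0.831 CPM) and Kcnh2, and 3 lower, Abcc9, Kcnq5 and Ano1. Kcna5 had 102 UMIs in Corin cells and 4 in Corin-0 cells. Kcna5, Kcnk3, Cacna1h, Ednra, Adrb1, S1pr3 and Jag2 met the minimum of 5 CPM through the Corin cells alone, which favours higher genes. In Asc-RFP, ion channels gave 1 higher and 3 lower of 18, and vasoactive receptors 2 and 2 of 8. The Asc-GFP counts were 1 higher and 2 lower of 17 ion channels, and 1 and 1 of 8 vasoactive receptors.

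Cardiac and developmental lists follow. The cardiac sarcomere list had 1 higher member of 11, Tnnt2, and 3 lower, Actn2, Myoz2 and Ankrd1, with a median of -0.12. In female cells it had 1 higher and 4 lower of 11 (median -0.23), in male cells 4 and 3 of 13 (0.23), in Asc-RFP 6 and 1 of 10 (0.55) and in Asc-GFP 2 and 4 of 12 (-0.07). Sarcoplasmic reticulum genes gave Pln higher and Casq1 lower of 15. In the natriuretic and cyclic GMP list of 14, the phosphodiesterase Pde1a was higher (58.6 and 24.4 CPM) and Npr1, Npr3 and Pde1c were lower. Heart and second heart field regulators gave 3 higher of 14, the transcription factors Gata4 (28.4 and 10.1 CPM), Tbx2 (33.9 and 14.3 CPM) and Nr2f2 (87.8 and 35.6 CPM), and 1 lower, Irx3 (1.94 and 8.73 CPM). The log2 ratio of Gata4 was 1.49 in Root, 2.05 in Asc-RFP and 1.74 in Asc-GFP. Neural crest-associated regulators gave Msx1 and Prrx1 higher and Sox9 lower of 9, and in female cells 0 were higher and 1 lower of 9. Of 4 measured HOX genes 0 passed the limit. In Root Corin cells against the Root cells with more Lum and Dcn, 4 of 4 HOX genes were higher (median 0.82). For the other contrast, Corin over Corin-0 cells, Asc-RFP gave 1 higher and 4 lower of 8 (-0.46). Asc-GFP gave 0 higher and 5 lower of 6 (-0.84) in that contrast. The RGS family gave Rgs2, Rgs6 and Rgs17 higher and Rgs5 lower of 9, with a median of 0.16. In female cells it gave 2 higher and 1 lower of 8, with a median of -0.06.

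In most matrix lists more members were lower than higher in the Root contrast. Elastic fibre genes had 6 lower members of 18 and 1 higher, with a median of -0.33: elastin (Eln) had 897 CPM in Corin cells and 1385 CPM in Corin-0 cells, Mfap4 had 270.1 and 553 CPM, and Fbln2, Mfap5, Loxl3 and Ltbp2 were lower with them, while Fbln1 was higher. Genes of modulated smooth muscle gave 5 lower (Tnc, Postn, Ccn2, Ccn1 and Eln) and 2 higher (Thbs1 and Cd34) of 14, with a median of -0.46. Its median was 0.32 in Asc-RFP, where 5 members were higher, and -0.50 in Asc-GFP. In female Root cells this list had 3 higher and 4 lower of 14, and the elastic fibre list 1 higher and 4 lower of 18. Proteoglycan and cartilage-type genes gave 4 lower (Comp, Vcan, Mia and Sox9) and 1 higher (Matn2) of 12, and collagens gave Col3a1 and Col15a1 lower and 0 higher of 16. Integrins and basement membrane genes gave 1 in each direction of 19, Nid1 higher and Lama4 lower. In Asc-RFP proteoglycan and cartilage-type genes gave 4 higher and 3 lower of 11, and elastic fibre genes 2 and 2 of 18. Collagens gave 1 higher and 2 lower of 16 there. In Asc-GFP these lists gave, in the same order, 3 and 1 of 11, 0 and 1 of 17, and 1 and 1 of 16.

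Growth factor lists were mixed. The Wnt list gave 4 higher (Wnt5a, Wnt9a, Sfrp1 and Ccn4) and 5 lower (Wnt16, Sfrp2, Wif1, Dkk3 and Ccn5) of 15. TGF-beta genes gave Tgfb3, Smad3 and Smad7 higher and Ccn2 lower of 20, against 1 higher and 3 lower of 20 in female cells. The BMP genes gave Bmp4, Bmpr1b and Bambi lower and 0 higher of 12. The contraction machinery was close to level: 3 of 25 contractile apparatus genes were higher (Actg2, Synm and Pcp4l1) and 0 lower. Their median was 0.10. In female cells 0 were higher and 1 lower of 25, with a median of 0.02. Of 15 contractile regulators, 0 passed the limit in either direction. Metabolic lists gave 2 higher of 19 glycolysis and muscle energy genes, Pgam2 and the creatine kinase Ckb (456 and 226 CPM), and 0 of 26 oxidative phosphorylation genes. Lipid and retinoid handling gave 1 of 11 in each direction, Apoe higher (689 and 342 CPM) and Rbp4 lower. Immediate-early and dissociation genes, which the digestion of tissue can induce, gave Junb and Ier2 higher and Egr1, Atf3, Ier3, Hspa1b and Dnajb1 lower of 18, with a median of 0.02, and male cells gave 7 higher and 2 lower of 19 (median 0.35).

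**Figure D5:**
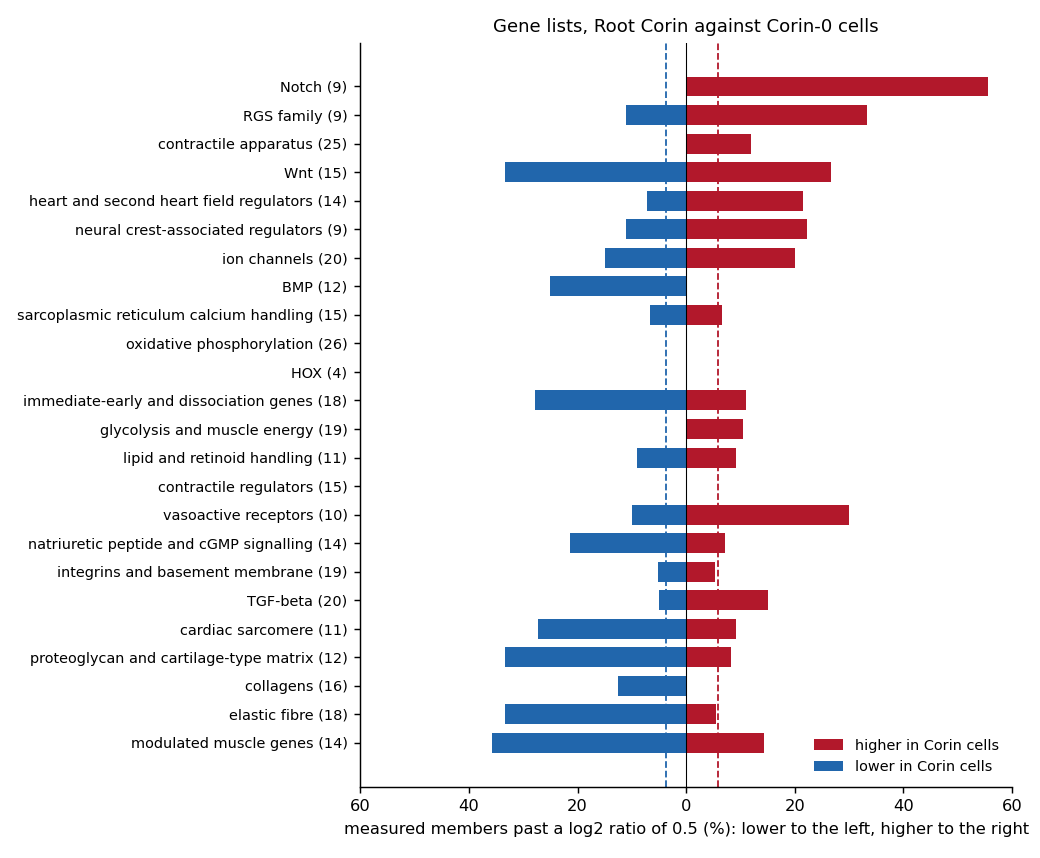
Percent of the measured members of 24 gene lists that were higher or lower by a log2 ratio of 0.5 in Root Corin cells over matched Corin-0 cells. Dashed lines give the shares of all genes at the same minimum, 5.86% higher and 3.78% lower, and Notch stands at 5 of 9 higher.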

How the data were processed

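Droplet-based single-cell RNA-seq of ITGA8-sorted aortic cells was deposited as filtered UMI count matrices, 1 per library. Per the file headers, the authors' counts came from Cell Ranger 7.0.0. The submitters' processing notes name the build mm10 and Seurat 4.3. The sources used here give no strand or intron setting. The members and the gene lists were chosen with earlier results of these data known. Cells were cut by the rule given above, matched 1 to 1 on log10 total UMIs within 0.05, and summed per set. Levels are CPM over all UMIs. Intervals are exact (Poisson for sums, Clopper-Pearson for shares, conditional binomial for ratios). A gene was called higher or lower when its log2 ratio was 0.5 or more in size, at 20 CPM or more in either set (5 CPM for lists). No ratio was given where both sets had 3 or fewer UMIs and at least 1 of them had 0. The same held where a set at 0 left no bound above or below the other.

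Named genes were the 15 highest and 15 lowest by the interval bound nearest 0 (6 and 6 in other contrasts), without mitochondrial, ribosomal, sex-linked and rule genes, plus the markers and up to 4 members per list; other list members that passed 0.5 were named after their values were seen. eGFP cells had 8 or more eGFP UMIs, and tdTomato cells at least 1 tdTomato and at most 2 eGFP UMIs. Arch-GFP had 18 Corin cells, under the minimum of 50, and was not contrasted. Of 32287 features, 32158 matched GENCODE M21. The ratio step was tested on simulated data. Python 3.11.15, numpy 2.4.6, scipy 1.17.1 and pandas 2.3.3 were used.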

Additional observations from a re-analysis of the deposited data

Results flagged for a closer look

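Thbs1, the matrix glycoprotein, drew attention because it lay on opposite sides in 2 libraries under the same contrast. Its log2 ratio of Corin over Corin-0 cells was -3.45 in Asc-GFP, against 2.29 in Root and 2.17 in Asc-RFP. In female Root cells alone it was 0.77, and the Asc-RFP value rests on 63 Corin cells. The Asc-GFP value rests on 1 UMI in 74 Corin cells and 109 UMIs in 740 Corin-0 cells, or 0.926 and 10.1 CPM, under the minimum of 20 CPM used for calls, and its interval runs from -8.76 to -0.94. The difference between libraries was not tested, since each is a single library.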

How the results depend on the processing

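No paired analysis was possible because each group was 1 library. The main counts, 175 genes higher and 139 lower, became 301 and 263 with at least 2 Corin UMIs, 587 and 489 in eGFP cells only (100 in each set), 83 and 65 at a minimum of 50 CPM, and 570 and 368 at a minimum of 5 CPM; under the remaining alternatives they stayed within 1.5 times. The share of Corin cells, 20.1%, was 13.0% when cells were thinned first, 16.2% in female cells and 17.3% in eGFP cells. Shares of Corin cells with a marker, at 3000 UMIs and without thinning, were 50.3% and 65.3% for Tnnt2, 40.2% and 70.4% for Pln, 8.75% and 21.3% for Rgs17 and 13.5% and 28.4% for Pgam2. For Corin-0 cells they were 48.55% and 69.6% for Tnnt2, 17.85% and 44.6% for Pln, 5.20% and 15.2% for Rgs17 and 1.70% and 6.71% for Pgam2. Of 1496 values of the 88 named genes past 0.5, 1491 kept their sign and 1423 stayed past 0.5. Those that changed sign were Ankrd1 (0.039 in tdTomato and 0.027 in eGFP cells), Sox9 (0.32), Smad3 (-0.17) and Bmp4 (0.49), the last 3 in eGFP cells. Over all 113 named genes, 31 of 1921 values changed sign. The 15 highest and 15 lowest genes stayed past 0.5 in 510 of 510 values over 17 alternatives, the smallest at 0.77. These genes and the 88 above were picked out on the same Root cells that the alternatives reuse, so these counts are a description. The Notch median, the only list median past 0.5, lay between 0.77 and 1.19 under 16 of the 17 and was 0.48 in eGFP cells. With thinning seeds 2 to 6, chosen after the data were seen, 24.2% to 26.3% of Corin cells and 9.54% to 10.3% of Corin-0 cells had 10 or more Tnnt2 UMIs. The cause of these shifts was not tested. With 1 library per group, differences between animals and between library preparations cannot be separated from those between sets of libraries.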

Other observations

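In Root, 53 cells carried Corin together with more than 3 UMIs of Lum and Dcn, and they are among the 215 cells with more Lum and Dcn, where they were not described apart above. They had 271 CPM of Corin, 4110 CPM of Tnnt2 and 2639 CPM of Apoe, against 236, 1380.4 and 689 CPM in the 507 Corin cells with little Lum and Dcn. Rgs17 had 68.1 CPM in the 53 cells and 32.7 CPM in the 507, Des (desmin) was at 394 CPM, and Phex had 65.5 and 32.8 CPM. Genes that were highest in Corin cells without Tnnt2 were low or not seen: Olfr558 had 0 UMIs in the 53 cells, which allows up to 4.01 CPM, against 26.0 CPM in the 507, and Pgam2 had 6.68 and 62.8 CPM. Notch3 had 28.1 CPM in the 53 cells and 97.2 CPM in the 507, and Pln had 78.8 and 224 CPM. Art3 (102 and 145 CPM) and Gata4 (33.4 and 28.4 CPM) were closer. Females made up 94.2% of the sexed cells among the 53 and eGFP cells 3.77%, against 74.2% and 19.7% of the 507, and the part of either in these levels was not tested.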
